A study of Mus musculus with 6 samples.

Results

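Hepcidin and the genes that set its level through BMP-SMAD iron sensing were followed in liver RNA of sickle cell mice. The 10 genes were chosen by symbol, as parts of this pathway (Hamp, Hamp2, Bmp6, Hfe, Hfe2, Tfr2, Tmprss6, Id1, Smad6 and Smad7), all 10 were found among the 24421 genes of the count tables, and all 10 were among the 12622 with enough reads to test. SS mice were homozygous at the beta-globin locus for the human sickle allele (Hbbtm2(HBG1,HBB*)Tow), and AS mice carried that allele over Hbbtm3(HBG1,HBB)Tow, which holds the normal human gene. Both genotypes shared the human alpha-globin replacement Hbatm1(HBA)Tow and a human fetal globin gene at the beta locus. Each genotype gave 3 libraries of total RNA, from livers of mice aged 7 months, and the comparison of SS with AS asks what differs in a liver exposed to sickling. The labels give no sex, litter or batch and do not say that replicates are separate animals, so p-values measure the spread between these libraries.

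Hepcidin is a peptide hormone that hepatocytes secrete, and it lowers iron release into blood by binding the iron exporter ferroportin and sending it to degradation. Its gene is switched on when BMP6 and BMP2, made mainly by sinusoidal endothelial cells, bind receptors on hepatocytes and lead to phosphorylation of SMAD proteins. Hemojuvelin (Hfe2) is the co-receptor of this step, HFE and transferrin receptor 2 pass on the saturation of transferrin, and the protease matriptase-2 (Tmprss6) cleaves hemojuvelin and holds the signal down. ID1, SMAD6 and SMAD7 are induced by the same signal, and the SMAD6 and SMAD7 proteins inhibit it. Interleukin 6 raises hepcidin through STAT3, while erythroferrone from red cell precursors lowers it by binding BMP ligands.

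The mouse has 2 hepcidin genes, which lie close together on the minus strand of chromosome 7 (Hamp at 30942368 to 30944032 and Hamp2 at 30922372 to 30924681, GRCm38). Their promoters are shown because both genes were counted separately here and differ at the BMP-responsive element. The 150 bases before the start of Hamp (chr7:30944030-30944179, minus strand) aligned without gaps to chr7:30924179-30924328 of Hamp2, with 138 identical bases (92%), in RefSeq sequence of GRCm38.p6. Capitals mark GGCGCC, the core of the BMP-responsive element, or the 6 bases aligned with it, and then TTCNNNGAA, a STAT motif.
Hamp: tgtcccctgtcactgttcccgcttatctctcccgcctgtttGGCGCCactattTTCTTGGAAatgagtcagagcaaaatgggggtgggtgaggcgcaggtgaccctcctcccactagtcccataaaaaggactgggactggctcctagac
Hamp2: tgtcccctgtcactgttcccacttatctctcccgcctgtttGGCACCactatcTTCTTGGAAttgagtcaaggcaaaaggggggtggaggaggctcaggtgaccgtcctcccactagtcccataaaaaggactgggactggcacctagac

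Counting from 1 at the first base printed, GGCGCC of Hamp lies at positions 42 to 47, and the substitution G45A (base of Hamp first, then that of Hamp2) falls in it. The other 11 of the 12 substitutions lie outside it, and TTCNNNGAA stands at positions 54 to 62 in both genes. Promoter windows of 250 bases before to 50 bases after a start were matched for 6 of the 10 genes (Hamp, Hamp2, Bmp6, Smad6, Hfe and 3 starts of Tfr2). In these windows GGCGCC was found in Hamp alone, against 11.9% of all 32851 windows, and TTCNNNGAA in Hamp and Hamp2, against 8.30% of all windows. Bmp6 alone held CACGTG, an E-box, as did 7.15% of all windows. The short Smad-binding motif GTCT, searched like the others on both strands, was in every window of the matched genes and in 88.0% of all windows, and in Smad6 its 2 matches, GTCT and the complement AGAC, stand side by side at the start. No match overlaps another in the printed stretches. A match is a run of letters, not a bound site.

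Hamp RNA had a lower mean in SS liver, and Id1, a target gene widely used to read BMP signalling, a higher one, but neither passed edgeR's quasi-likelihood test without a block, the test used throughout unless another is named. In CPM, counts scaled by library size and TMM factor to a common total, Hamp averaged 1654 ± 669.8 in SS and 3758 ± 1269 in AS (SD, n = 3 libraries each), a log2 change of -1.18, or 2.27-fold lower. All 3 SS libraries lay below all 3 AS libraries for Hamp, Smad6, Tfr2 and Tmprss6, which is 4 of the 10 genes, against 9.04% of all genes tested. None of the 10 genes passed that edgeR test at a Benjamini-Hochberg adjusted p under 0.05, which 0.967% of all genes did, and 0.0555% as lower in SS. At an unadjusted p under 0.05, Hamp and Tmprss6 were lower in SS and no member was higher, against 3.58% of all genes lower and 9.12% higher at that level. By DESeq2, Hamp was the 1 member that passed (adjusted p = 0.0396), where 3.59% of genes passed. Over the 18 alternatives, the adjusted p of Hamp by edgeR, DESeq2 or limma-voom ran from 0.00806 to 0.637.

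**Figure D1:**
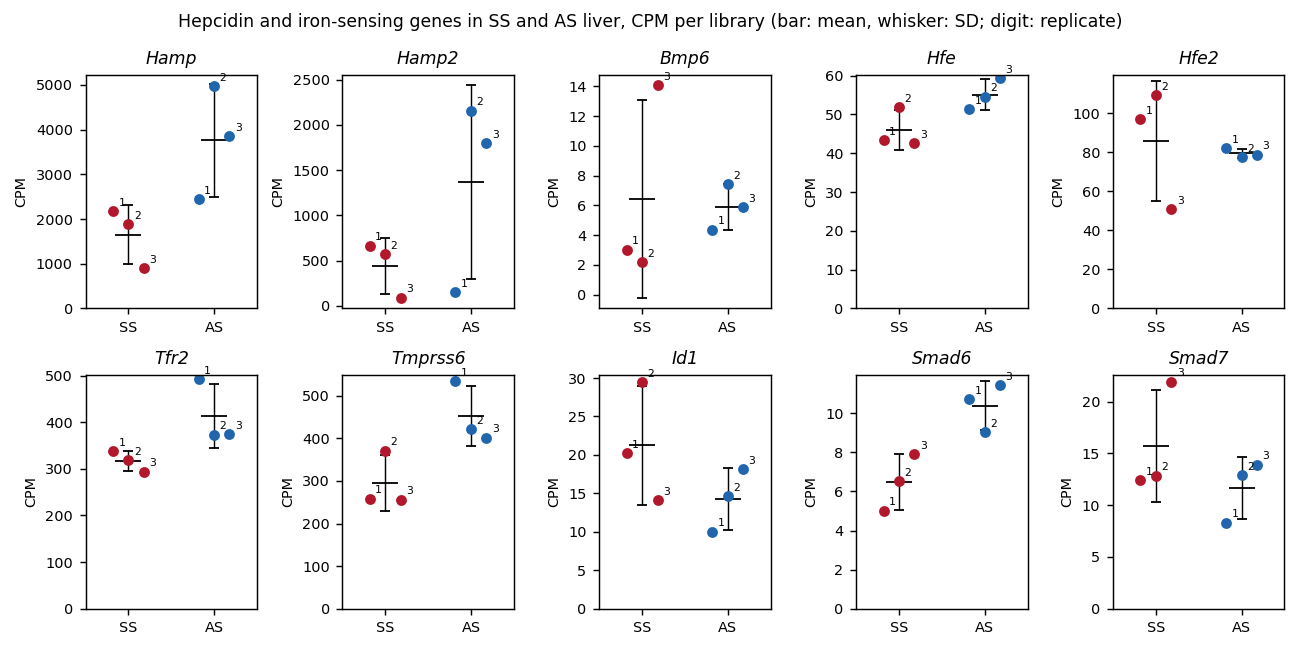
Each panel plots the CPM of 1 gene in 3 SS and 3 AS libraries, with the replicate number beside each point, a bar at the mean and whiskers of 1 SD. Hamp, Smad6, Tfr2 and Tmprss6 have every SS point below every AS point, and for Bmp6 SS replicate 3 stands at 14.1 CPM, above all other libraries.

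The labels give liver, and albumin (Alb), which hepatocytes secrete, ran from 49637 to 76278 CPM in SS and from 61238 to 85540 CPM in AS. Gene reads per library ran from 6670011 to 13700194. The 4 adult mouse globin genes, replaced in this line, had 0 reads in the 6 libraries. In a principal component analysis, the first component kept the genotypes apart. SS replicates 1, 2 and 3 lay at -21.2, -15.9 and -76.2 on it, and AS replicates 1, 2 and 3 at 58.45, 32.8 and 22.1. SS replicate 3 and AS replicate 1 were thus at its opposite ends. AS replicates 2 and 3 were close to each other, with a chi-square per gene of 3.97 against 27.1 to 159.7 for the other pairs, still above sampling noise, so each is counted as a library. Fits with some of these libraries left out, or with AS replicates 2 and 3 summed, are given for Hamp, Hamp2 and other named genes.

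Hamp had 2179, 1883 and 899.6 CPM in SS replicates 1, 2 and 3, against 2446, 4978 and 3849.8 CPM in AS replicates 1, 2 and 3. The groups did not overlap, but the gap between the highest SS and the lowest AS library was small beside the spread within each group. These levels rest on 11497 to 25974 reads in SS and 21235 to 47079 reads in AS, so counting error is not what limits the comparison. The edgeR adjusted p was 0.241 (SE of the log2 change 0.388, 95% interval -2.04 to -0.33). With any 1 library left out the log2 change was between -1.44 and -0.90 and did not pass. It passed in a fit without both AS replicate 1 and SS replicate 3, at -1.12 (edgeR adjusted p = 0.00806, SE 0.156). In that fit, with 2 libraries per genotype, 5.21% of genes passed. The libraries left out were the lowest of their genotype in Hamp itself, so the choice narrows the spread within groups. The AS libraries kept were the close pair, replicates 2 and 3, so the SE of that fit may also understate the spread. With that pair summed, the log2 change of Hamp was -1.03 (edgeR adjusted p = 0.590).

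Hamp2, the second mouse hepcidin gene, varied more between libraries than between genotypes. It had 667, 572 and 89.4 CPM in SS replicates 1, 2 and 3, against 150.3, 2156 and 1798 CPM in AS replicates 1, 2 and 3. The low libraries were SS replicate 3 and AS replicate 1, 1 of each genotype, so the groups overlapped. The log2 change was -1.63 (edgeR adjusted p = 0.496, SE 0.93). Without those libraries it was -1.68 (edgeR adjusted p = 0.000918, SE 0.151), in a fit where 5.21% of genes passed. The libraries left out were the lowest of their genotype in Hamp2 itself, so the choice narrows the spread within groups, and the small p is no separate support. The AS libraries kept were the close pair, replicates 2 and 3, so the SE of that fit may also understate the spread. With that pair summed the log2 change was -1.24 (edgeR adjusted p = 0.775), and with any 1 library left out it ran from -2.17 to -1.15.

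As a share of all hepcidin reads, Hamp2 made up 23.4%, 23.3% and 9.04% in SS replicates 1, 2 and 3, and 5.79%, 30.2% and 31.8% in AS replicates 1, 2 and 3. Counting error was small for each share, with Wilson 95% limits of 22.9% and 24.0% for SS replicate 1, the widest of the 6. The share averaged 18.6% in SS and 22.6% in AS, a difference of -4.02 percentage points (exact two-sided permutation test, p = 0.6, where 0.1 is the smallest p that 3 against 3 libraries allow). The share thus differed more between libraries of 1 genotype than between genotypes, and its difference was 0.75 points without SS replicate 3. The pair are near copies whose reads the counting could have lost or split. Summed, they gave 2846, 2456 and 989 CPM in SS and 2596, 7133 and 5648 CPM in AS, so that SS replicate 1 exceeded AS replicate 1, and the log2 change was -1.29 (edgeR adjusted p = 0.279). Hamp2 also shares 89 exon bases with Gm44662, a noncoding gene on the opposite strand.

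Bmp6 encodes the ligand that rises with liver iron. It had 3.04, 2.18 and 14.1 CPM in SS replicates 1, 2 and 3, against 4.38, 7.41 and 5.89 CPM in AS replicates 1, 2 and 3. In SS, replicates 1 and 2 were below every AS library and replicate 3 was above every AS library. The log2 change was 0.14 (edgeR adjusted p = 0.943, SE 0.641), and it was -1.19 without SS replicate 3 (edgeR adjusted p = 0.292). Bmp6 rests on 23, 30 and 180 reads in SS and 38, 46 and 72 in AS. It shares 224 exon bases with Txndc5 on the opposite strand, a far more abundant gene (146 ± 32.3 CPM in SS and 146 ± 14.7 CPM in AS), and without a stated strand setting the reads of the pair cannot be told apart there.

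Sinusoidal endothelial markers, summed over 12 genes with none at 0, were 374, 379 and 633 CPM in SS replicates 1, 2 and 3 and 366, 523 and 510.2 CPM in AS replicates 1, 2 and 3. SS replicate 3 was thus highest in these markers as in Bmp6. The log2 ratio of Bmp6 to the summed markers was -6.94, -7.44 and -5.49 in SS, against -6.39, -6.14 and -6.44 in AS. Per endothelial marker reads, SS replicate 3 was still the highest library and SS replicates 1 and 2 the lowest (difference of means -0.31, exact permutation p = 0.7). In bulk liver, fewer cells of a type and less RNA per cell cannot be told apart. Bmp2, the other endothelial ligand, had 12.3, 16.6 and 23.9 CPM in SS and 24.2, 29.8 and 26.7 CPM in AS, with no overlap and a log2 change of -0.61 (edgeR adjusted p = 0.428, SE 0.299).

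The sensors and the co-receptor of the hepatocyte surface showed smaller differences than Hamp. Tfr2, transferrin receptor 2, had 338, 318 and 294 CPM in SS, against 492, 373 and 374 CPM in AS. Every SS library was lower, and the log2 change was -0.38 (edgeR adjusted p = 0.540, SE 0.25). Hfe, the partner of transferrin receptors that is mutated in hereditary hemochromatosis, had 43.4, 51.8 and 42.6 CPM in SS, against 51.4, 54.6 and 59.4 CPM in AS. Its groups overlapped by a narrow margin, and the log2 change was -0.26 (edgeR adjusted p = 0.642), or 0.0020 with library totals alone.

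Hemojuvelin (Hfe2) was the steadiest member in AS, at 82.1, 77.3 and 78.7 CPM, against 97.0, 109 and 50.7 CPM in SS replicates 1, 2 and 3. SS replicates 1 and 2 were above every AS library and SS replicate 3 was below every one. The log2 change was 0.11 (95% interval -0.54 to 0.76, SE 0.294, edgeR adjusted p = 0.897), and it was -0.12 without SS replicate 2. Tmprss6, the protease that cleaves hemojuvelin, had 258, 371 and 256 CPM in SS, against 534, 422 and 401 CPM in AS. The groups did not overlap, with a log2 change of -0.62 (95% interval -1.22 to -0.017, SE 0.271, edgeR adjusted p = 0.384). It was the member with the lowest p after Hamp, and with 1 library left out its log2 change ran from -0.83 to -0.49.

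**Figure D2:**
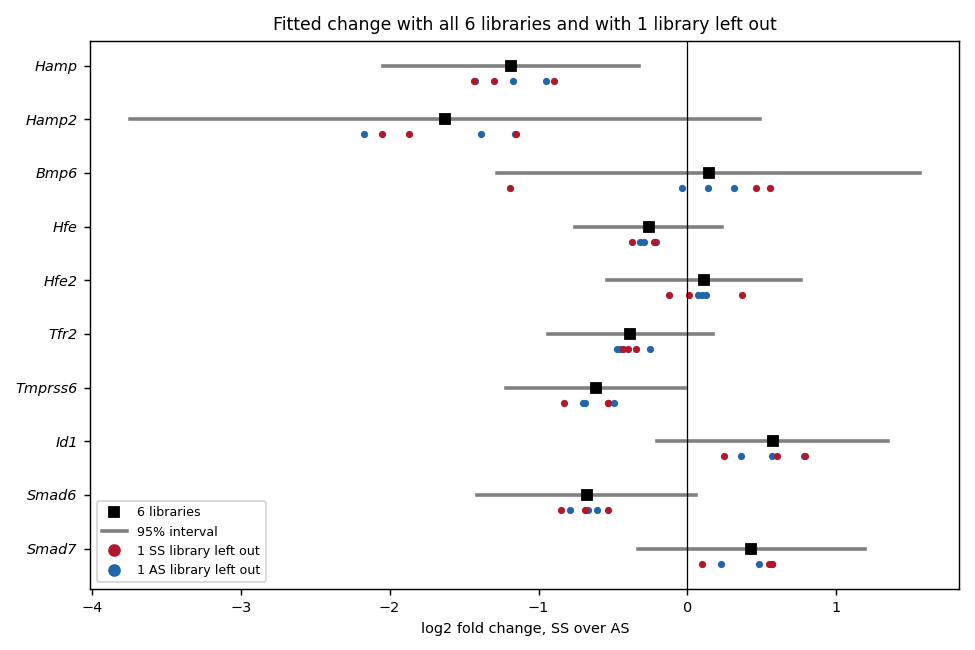
Squares give the log2 fold change of SS over AS with all 6 libraries, grey lines its 95% interval, and circles the change with 1 SS (red) or 1 AS (blue) library left out. Hamp, Hamp2, Hfe, Tfr2, Tmprss6 and Smad6 stay below 0 and Id1 and Smad7 above 0 in these fits, while Bmp6 falls on both sides of 0, down to -1.19 without SS replicate 3, and Hfe2 crosses 0 without SS replicate 2.

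The target genes of the pathway had fitted values of both signs, and none passed the test. Id1, an inhibitor of basic helix-loop-helix factors, had 20.2, 29.4 and 14.1 CPM in SS replicates 1, 2 and 3, against 10.02, 14.7 and 18.2 CPM in AS replicates 1, 2 and 3. SS replicates 1 and 2 were the highest of the 6 libraries, and SS replicate 3 lay within the AS range. The log2 change was 0.57 (95% interval -0.20 to 1.34, SE 0.349, edgeR adjusted p = 0.513), and it was between 0.24 and 0.79 with any 1 library left out.

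Within each library, Hamp had 108, 64.0 and 63.9 reads for each Id1 read in SS replicates 1, 2 and 3, and 244, 340 and 212 in AS replicates 1, 2 and 3. This ratio needs no scaling between libraries but is not free of cell mix, whose part in it was not tested. No SS library came near the AS range of the ratio. On the log2 scale it averaged 6.25 ± 0.436 in SS and 8.02 ± 0.349 in AS (SD, n = 3), a difference of -1.77 (exact two-sided permutation p = 0.1, the smallest that 3 against 3 libraries allow). With any 1 library left out the difference was between -2.02 and -1.58. The reads of Hamp per read of Hfe2 also did not overlap, at 17.3 to 22.5 in SS and 29.8 to 64.4 in AS, whereas those per read of Tmprss6 did, at 3.51 to 8.44 in SS and 4.58 to 11.8 in AS. The last pair of ratios was chosen after the values were seen and has no test.

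Smad6 and Smad7, the inhibitory SMAD genes, had fitted values of opposite sign. Smad6 had 5.01, 6.53 and 7.90 CPM in SS, against 10.7, 9.02 and 11.4 CPM in AS, with every SS library lower. Its log2 change was -0.68 (edgeR adjusted p = 0.425, SE 0.333) and rests on 38 to 140 reads per library. Smad7, which lies on chromosome 18, had 12.4, 12.8 and 21.9 CPM in SS replicates 1, 2 and 3, against 8.29, 12.9 and 13.9 CPM in AS replicates 1, 2 and 3. Those groups overlapped, with a log2 change of 0.43 (edgeR adjusted p = 0.6195, SE 0.344). It was -0.090 without both AS replicate 1 and SS replicate 3. In each SS library there were 1.97 to 2.77 Smad7 reads per Smad6 read, and in each AS library 0.774 to 1.43, a ratio chosen after the values were seen and given without a test.

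**Figure D3:**
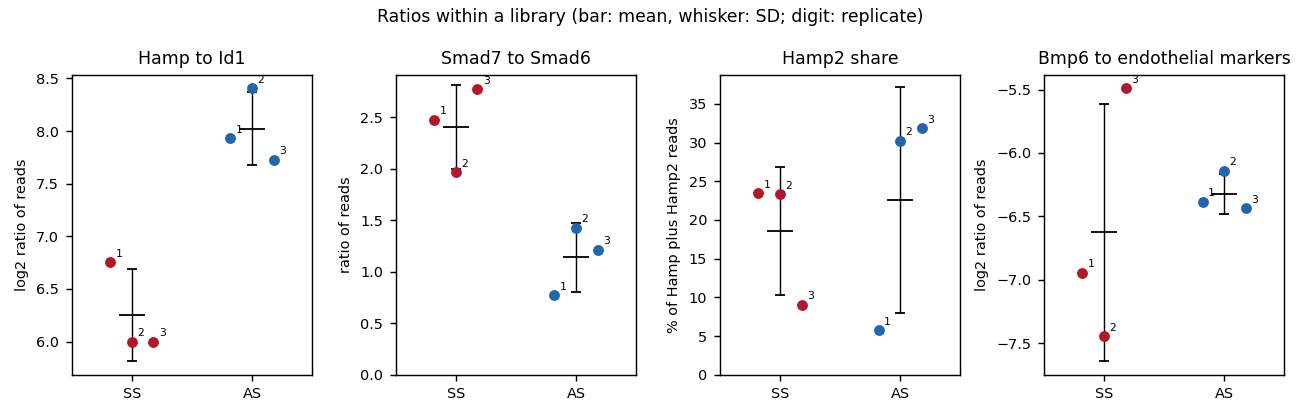
Points are single libraries of SS and AS with the replicate number, bars are means and whiskers 1 SD. The log2 ratio of Hamp to Id1 reads and the ratio of Smad7 to Smad6 reads keep the genotypes apart, while the share of Hamp2 among hepcidin reads is low in SS replicate 3 (9.04%) and AS replicate 1 (5.79%) and the log2 ratio of Bmp6 to endothelial marker reads is highest in SS replicate 3 (-5.49).

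Over the 10 genes, 4 fitted values were higher and 6 lower in SS, with a median log2 change of -0.32, against 7100 higher and 5522 lower and a median of 0.082 over all genes tested. With library totals alone the median of all genes was 0.36, and the log2 change of Hamp was then -0.95 and that of Id1 0.80.

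Levels were ordered by CPM per kilobase of exon. In SS the mean levels per kilobase were 4034 for Hamp, 760 for Hamp2, 87.9 for Tmprss6, 73.0 for Tfr2, 42.2 for Hfe2, 18.3 for Id1, 12.9 for Hfe, 3.48 for Smad7, 2.02 for Smad6 and 1.65 for Bmp6. The ranges of the libraries overlapped between the neighbours Tmprss6 and Tfr2, Hfe2 and Id1, Id1 and Hfe, and Smad6 and Bmp6. In AS they were 9165 for Hamp, 2347 for Hamp2, 135 for Tmprss6, 95.3 for Tfr2, 39.1 for Hfe2, 15.4 for Hfe, 12.3 for Id1, 3.24 for Smad6, 2.59 for Smad7 and 1.51 for Bmp6. There the neighbours Hfe and Id1, Smad6 and Smad7, and Smad7 and Bmp6 overlapped. Hamp thus stood far above the surface proteins that sense iron. Hamp2 was also above them in every library, but by less in AS replicate 1, at 257.8 per kilobase against 159 for Tmprss6, and in SS replicate 3, at 153 against 76.3. The ligand and the inhibitory SMAD genes were at the bottom in both genotypes. Id1 and Hfe changed places between the genotypes, as did Smad7 and Smad6.

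Genes most like Hamp over the 6 libraries, among 7994 with a mean of at least 10 CPM, were Gnl2, Sult2a2, Trim14, Car3 and Arl4d, with Pearson r of log2 CPM from 0.985 to 0.995. Car3, a carbonic anhydrase abundant in liver, had 1306, 1030.3 and 680.7 CPM in SS and 1258, 2240 and 2115 CPM in AS, so SS replicate 1 was above AS replicate 1. Most like Id1 were Mms19, Ociad2, Tcf25, Spc24 and Fam89b (r from 0.963 to 0.986). The 2 lists share no gene. These are descriptions of 6 libraries that also differ in genotype, and no p is given.

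Beyond the 10 genes, 74 tested genes of the pathway and its partners are reported. Of these 74, Ftl1 was the 1 that passed edgeR's test at an adjusted p under 0.05, against 0.967% of all genes, and it rose in SS.

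Of 16 BMP ligands and extracellular regulators, 15 were tested and 0 passed, with 13 fitted values higher and a median log2 change of 0.34. At an unadjusted p under 0.05, 3 of the 15 were higher, against 9.12% of all genes. Fstl1, a secreted follistatin-like glycoprotein, had the lowest p of the list, at 50.01, 29.2 and 19.6 CPM in SS and 13.9, 9.99 and 12.1 CPM in AS. Its log2 change was 1.45 (edgeR adjusted p = 0.114, SE 0.361). It passed in 5 of 17 alternatives, among them without SS replicate 3 (adjusted p = 0.0319 by edgeR) and by DESeq2 (adjusted p = 0.0174). The edgeR adjusted p was 0.422 without AS replicate 2 and 0.374 with AS replicates 2 and 3 summed. The groups were separate, with SS replicate 1 the highest.

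BMP and activin receptors showed 0 calls in 10 tested (median 0.059), and at an unadjusted p under 0.05 there was also none. Acvrl1, a type I receptor of endothelial cells, had the lowest p, with 5.81, 12.2 and 4.70 CPM in SS and 4.49, 3.38 and 3.93 CPM in AS (log2 change 0.94, edgeR adjusted p = 0.421). The main hepatocyte receptor Bmpr1a had 20.6, 20.6 and 21.8 CPM in SS, inside the AS spread of 26.5, 20.8 and 20.3 CPM.

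SMAD genes and their regulators also had 0 calls in 11 tested (median 0.087), and 0 at an unadjusted p under 0.05. The signal carriers Smad1 and Smad5 had log2 changes of 0.36 and 0.17, and the common partner Smad4 had -0.037 (edgeR adjusted p = 0.620, 0.813 and 0.973). Without SS replicate 3, Smad5 was at -0.052, and without SS replicate 1 Smad4 was at 0.18. Smad9 had the lowest p of these, at 10.3, 5.87 and 15.7 CPM in SS and 10.8, 24.3 and 20.4 CPM in AS (log2 change -0.80, SE 0.42, edgeR adjusted p = 0.457). It passed without both AS replicate 1 and SS replicate 3 (log2 change -1.49, edgeR adjusted p = 0.0354). Those were the libraries of each genotype nearest the other genotype in Smad9.

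Of 6 BMP-SMAD target genes tested and reported outside the 10, 0 passed edgeR's test and 0 were at an unadjusted p under 0.05 (median log2 change -0.056). Hes1, a transcriptional repressor best known as a Notch target, had the lowest p, with 9.24, 9.21 and 7.43 CPM in SS and 6.68, 5.32 and 5.07 CPM in AS. Every SS library was above every AS library, and the log2 change was 0.60 (edgeR adjusted p = 0.489, SE 0.34). Id3, a relative of Id1, had 46.1, 62.2 and 49.6 CPM in SS and 49.98, 34.8 and 37.2 CPM in AS (log2 change 0.37, edgeR adjusted p = 0.556). Id2 had a log2 change of -0.32 and Atoh8, a helix-loop-helix factor that responds to iron, -0.44 (edgeR adjusted p = 0.615 and 0.655). Atoh8 was low in SS replicate 3 (13.2 CPM) and within 33.9 to 49.2 CPM in the other 5 libraries. Of the 6 fitted values 3 were higher and 3 lower.

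In the interleukin 6 and STAT3 arm, 13 of 15 genes were tested and 0 passed, with 7 fitted values higher, 6 lower and a median of 0.23. At an unadjusted p under 0.05, 3 were higher and 1 lower, against 9.12% and 3.58% of all genes. Of the 3 higher, Il6ra rests on SS replicate 3, at 14.9, 4.71 and 140.3 CPM in SS and 5.64, 12.7 and 12.2 CPM in AS. Socs3, a feedback inhibitor that STAT3 induces, was nearly equal in the SS libraries at 9.50, 9.43 and 9.31 CPM, against 2.76, 4.35 and 3.68 CPM in AS. Its log2 change was 1.39 (edgeR adjusted p = 0.126, SE 0.361), and DESeq2 called it (adjusted p = 0.0320). That was the 1 of 17 alternatives in which Socs3 passed, and the edgeR adjusted p reached 0.380 without AS replicate 3. Osmr, the oncostatin M receptor, had the lowest p, with 19.3, 14.4 and 12.9 CPM in SS and 3.92, 4.51 and 7.93 CPM in AS (log2 change 1.49, edgeR adjusted p = 0.112, DESeq2 adjusted p = 0.0170). Osmr passed in 2 of 17 alternatives, and its edgeR adjusted p reached 0.409 without AS replicate 2. Both genes had every SS library above every AS library, while Lifr and Crp of the same list had every SS library below. The log2 change was -0.93 for Lifr and -0.35 for Crp (edgeR adjusted p = 0.287 and 0.562). Groups were apart, in either direction, for 4 of the 13 genes, against 2668 of all 12622 genes tested. Stat3 itself had a log2 change of 0.23 (edgeR adjusted p = 0.751), which was -0.024 without SS replicate 3, and Il6 was near 0 (at most 0.924 CPM, in SS replicate 1).

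The list of suppressors of hepcidin and other genes tied to its control had 7 of 9 genes tested and 0 called, with a median of 0.50. Not all of its genes lower hepcidin, so the median does not measure suppression. At an unadjusted p under 0.05, 3 of 7 were higher, against 9.12% of all genes. These were Pdgfb, Pdgfra and Prss8, and Pdgfb rests on 1 to 27 reads per library. Fam132b, which encodes erythroferrone, had too few reads to test, with 0, 3 and 2 reads in SS and 11, 2 and 4 in AS. Pdgfra, a platelet-derived growth factor receptor, had the lowest p, at 7.52, 7.25 and 17.4 CPM in SS and 6.45, 2.74 and 3.60 CPM in AS (log2 change 1.33, edgeR adjusted p = 0.288).

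Among 12 genes of iron export and storage, Ftl1 rose and no other passed (median 0.48). At an unadjusted p under 0.05, 2 were higher and 1 lower, against 9.12% and 3.58% of all genes. Ftl1, the light chain of the iron store ferritin, had 2147, 5356 and 1926 CPM in SS, against 759.8, 521 and 420.1 CPM in AS. The lowest SS library was above the highest AS library, and the log2 change was 2.47 (edgeR adjusted p = 0.0339, SE 0.438). The call ended without AS replicate 1, 2 or 3 or SS replicate 2 (adjusted p by edgeR of 0.0915, 0.193, 0.157 and 0.0934), with AS replicates 2 and 3 summed (0.168) and by limma-voom (0.0524). In these fits the log2 change was between 1.83 and 2.73. Ftl1 has processed copies that can share its reads. Fth1, the ferritin heavy chain, did not rise with Ftl1. It had 1771, 2354 and 987 CPM in SS and 2616, 2148 and 2014 CPM in AS, which overlapped (log2 change -0.41, edgeR adjusted p = 0.629). Slc40a1, ferroportin, the target of hepcidin, had 179, 367 and 440.8 CPM in SS and 286, 206 and 178 CPM in AS. SS replicate 1 lay within the AS range (log2 change 0.56, SE 0.353, edgeR adjusted p = 0.526).

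**Figure D4:**
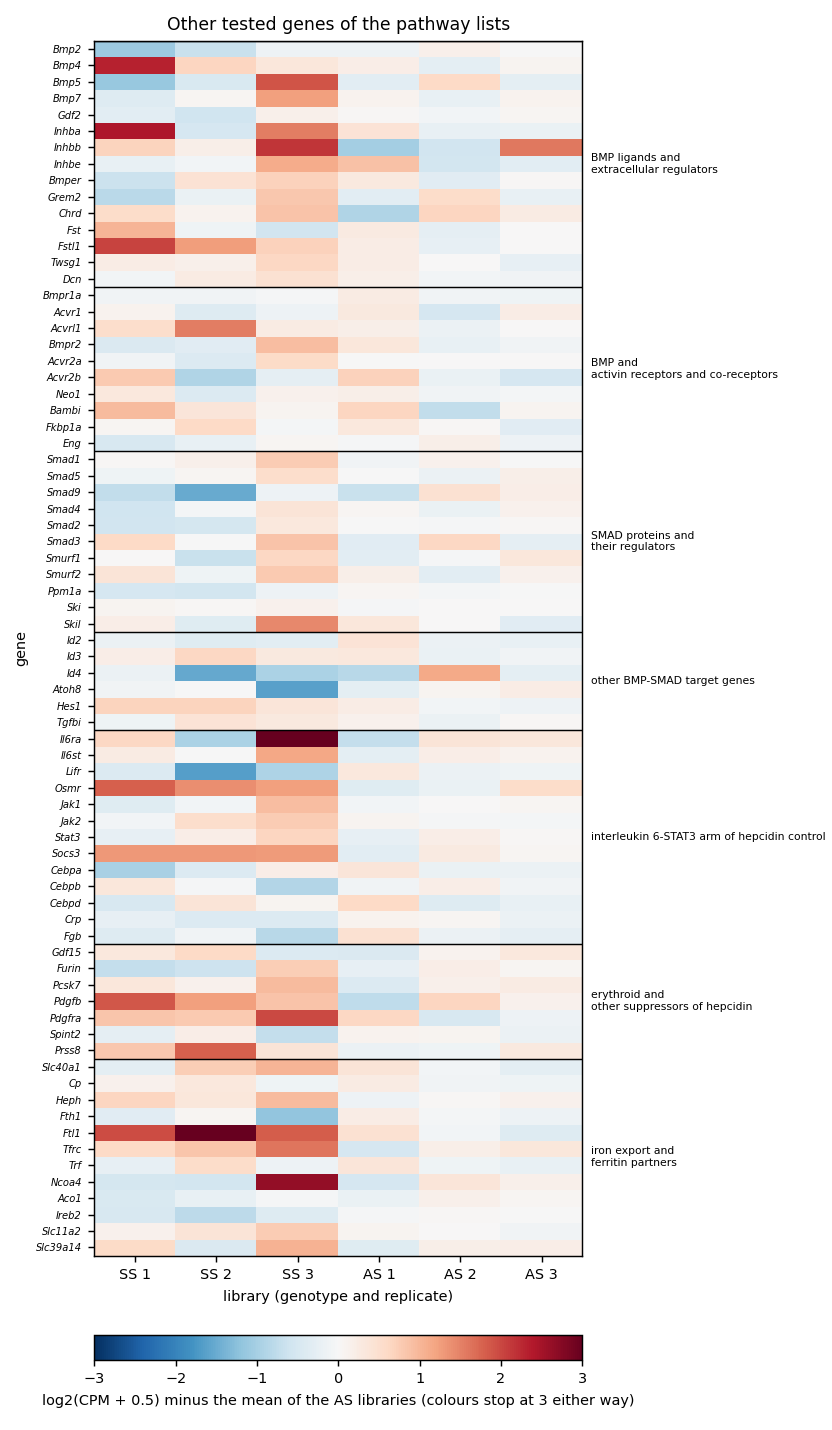
Colours give log2(CPM + 0.5) of 74 tested genes in each library minus the mean of the AS libraries, grouped by list, with SS libraries on the left and the scale ending at 3 in both directions. Ftl1, Osmr and Socs3 are above the AS mean in all 3 SS libraries, and SS replicate 3 often departs from SS replicates 1 and 2, as in Bmp5 and Atoh8.

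Marker sums of red cell precursors, recruited macrophages and neutrophils were higher in every SS library than in any AS library, while those of hepatocytes, endothelial cells, Kupffer cells and stellate cells overlapped. Hepatocyte markers summed to between 78839 and 107803 CPM in SS and between 94407 and 142301 CPM in AS. Of 9 tested, 8 had lower fitted values (median log2 change -0.39, 0 called). At an unadjusted p under 0.05, 1 was lower, against 3.58% of all genes. Their defining members were abundant, apart from Ass1, which stood at 0.078 to 0.363 CPM over the 6 libraries. Ass1 rests on 1 to 5 reads per library, and whether the counting lost its reads was not tested. Red cell precursor markers summed to 233 to 449 CPM in SS and 35.5 to 46.3 CPM in AS, with 5 of 9 tested called higher, against 0.911% of all genes called higher. Most of each sum was Alas2, at 179, 314 and 267 CPM in SS and 27.5, 28.4 and 30.5 CPM in AS. Of the 9, 8 were fitted higher and 1, Klf1, lower (log2 change -0.86, edgeR adjusted p = 0.491). Of the 12 listed, 10 were matched to a row. Kupffer cell markers ran from 1170.4 to 2830.2 CPM in SS and from 959.5 to 1349.8 CPM in AS (10 tested, 0 called). All 10 were fitted higher (median 0.73 on the log2 scale), 5 of them at an unadjusted p under 0.05, against 9.12% of all genes. The part of these cells in the values of Hamp and Hamp2 was not tested.

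Markers of recruited macrophages summed to 489 to 767 CPM in SS and 254 to 328 CPM in AS (5 of 10 called higher, against the same 0.911% of all genes), and neutrophil markers to 23.8 to 87.6 CPM in SS and 3.84 to 6.56 CPM in AS (2 of 6 tested called higher). Stellate cell markers stood at 503 to 719 CPM in SS and 629 to 696 CPM in AS, and bile duct markers at 125 to 264 CPM in SS and 97.8 to 115 CPM in AS, with 0 called in 10 and 5 tested. Most of the bile duct sum is Spp1, at 219, 102 and 131 CPM in SS and 69.8, 95.7 and 85.2 CPM in AS. The macrophage list also holds Spp1, and its sum was not taken without that gene. Without it, a choice made after the data were seen, the bile duct sums were 44.5, 23.6 and 15.5 CPM in SS and 27.99, 19.2 and 20.3 CPM in AS, which overlapped. No marker of these lists was at 0 in all 6 libraries.

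**Figure D5:**
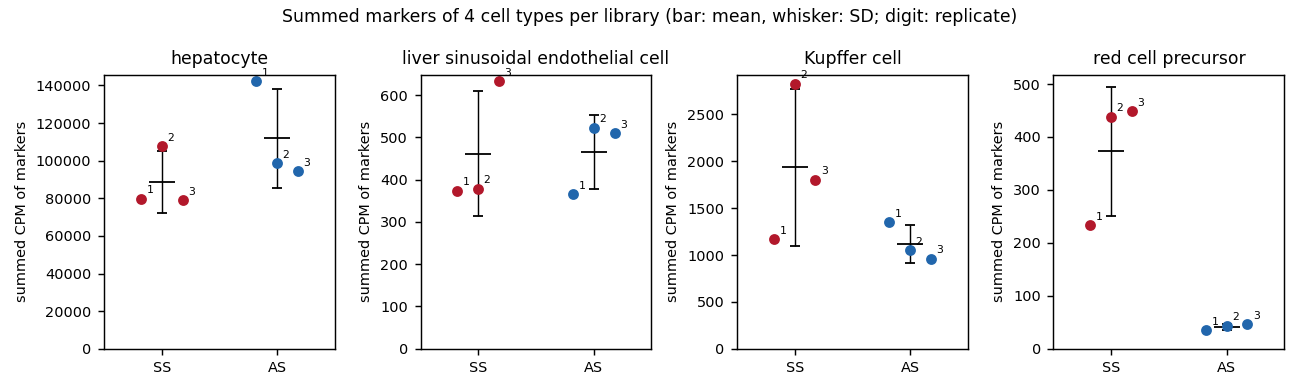
Points give the summed CPM of 4 marker lists in each SS and AS library, with means, SD whiskers and replicate numbers. Red cell precursor markers are separate between genotypes (233 to 449 CPM in SS, 35.5 to 46.3 CPM in AS), while the hepatocyte, endothelial and Kupffer cell sums overlap.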

How the data were processed

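HISAT2, HTSeq and the build mm10 are named in the submitters' processing notes. Versions, annotation, strand setting and filters are not given in the sources used here. The authors deposited raw read counts per gene symbol, and the 5 counter lines that follow, 66.6% to 78.5% of all records, were left out. Low genes were removed by filterByExpr at a minimum total of 15 and a minimum count of 10. SS was compared with AS over all genes by edgeR 4.0.16 in R 4.3.3 (TMM factors, robust quasi-likelihood F-test, two-sided, Benjamini-Hochberg adjustment), a procedure first tested on simulated counts. CPM used the same factors, and the standard error came from the F statistic. Alternatives were other scaling factors and filters, a non-robust fit, a replicate block, DESeq2 1.42.0, limma-voom (limma 3.58.1), left-out or summed libraries and, chosen after seeing the data, summed Hamp and Hamp2 counts. Exon lengths and overlaps came from GENCODE on GRCm38, which matched 23334 symbols directly and 649 by an older symbol.

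The members, lists and tests were chosen with earlier results of these data known. Genes named beside the 10 were those called in each list, otherwise that of lowest p, a fixed set (Bmp2, Smad1, Smad5, Smad4, Id2, Id3, Atoh8, Stat3, Socs3, Fam132b and Slc40a1), and the 5 most like Hamp or Id1. Bmpr1a, Il6, Il6ra, Lifr, Crp, Fth1, Pdgfb, Prss8, Spp1, Alb, Ass1, Txndc5, Alas2 and Klf1 were named after their values were seen. A listed target gene is not reported here. Intervals of log2 changes come from the spread between libraries. Reads are not unique molecules, so the Wilson limits of the Hamp2 share cover counting error only.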

Additional observations from a re-analysis of the deposited data

How the results depend on the processing

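The number of genes called was 122 (115 higher, 7 lower). It was 217 without a low-count filter, 460 with the replicate block, 453 by DESeq2, 31 by limma-voom, 31 with AS replicates 2 and 3 summed, 662 (346 higher, 316 lower) without AS replicate 1 and SS replicate 3, and 22 to 99 with 1 library left out. Hamp, uncalled by edgeR without a block, passed with the replicate block (log2 change -1.23), by DESeq2 (-1.22) and without AS replicate 1 and SS replicate 3 (-1.12), and was below 0 in all 18 alternatives. The last of those fits left out the library lowest in Hamp from each genotype. Deviations from the group means correlated at 0.0497, -0.12 and 0.193 for replicate numbers 1, 2 and 3, and 3 of 6 libraries correlated best with their own number. With AS replicates 2 and 3 so close to each other, these values neither show nor exclude a pairing of libraries by number.

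Some small changes turned sign. Bmp6 was at -0.30 with the replicate block, -0.27 by limma-voom, -1.36 without AS replicate 1 and SS replicate 3, and between -1.19 and 0.55 with 1 library left out. Without AS replicate 1 and SS replicate 3, Smad7 was at -0.090, Smad5 at -0.051 and Stat3 at -0.13. With library totals alone Hfe was at 0.0020 and Smad4 at 0.26. With 1 library left out, Hfe2 ran from -0.12 to 0.37, Smad4 from -0.32 to 0.18, Smad5 from -0.052 to 0.30 and Stat3 from -0.024 to 0.42. The Hamp2 share difference was 0.093 points with AS replicates 2 and 3 summed and -12.4 to 0.75 with 1 left out, and the log2 ratio of Bmp6 to endothelial markers differed by -0.87 to 0.10. The cause was not tested. Of 460 single-gene alternatives over 27 genes, 426 kept direction and call. Most of these genes were uncalled at the start, and staying uncalled counts as kept, so this total does not measure how firm a call is. Ftl1, the called gene among them, lost its call in 6 of 17 alternatives.

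With 3 libraries per genotype, a p that misses the threshold does not show that a gene stayed the same.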
